A study of Mus musculus with 15 samples.

Results

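Chromatin regions at 9 genes of macrophage lineage transcription factors were examined in bone marrow-derived macrophages (BMDMs) with and without the histone variant H3.3. The genes were Spi1, Cebpa, Cebpb, Maf, Irf8, Runx1, Mitf, Tfec and Klf4, chosen by name and function out of 21853 protein-coding genes of the GENCODE M21 annotation (mouse build mm10), and all 9 were found. A window was drawn for each as the gene body plus 20 kb on each side. The regions compared were those called in 10 CUT&RUN libraries, 2 per group. CUT&RUN tethers a nuclease to an antibody bound in the nucleus, and the DNA it releases is sequenced. The antibodies were against the HA tag on H3.3 (H3.3-HA), histone H3 acetylated on lysine 27 (H3K27ac) and histone H3 trimethylated on lysine 36 (H3K36me3).

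WT cells carried floxed H3f3a and H3f3b, the genes that encode H3.3, without Cre. cKO cells were H3f3a fl/fl:H3f3b fl/fl with LysM cre/cre, where Cre is driven by the myeloid gene Lyz2 and therefore acts during myeloid differentiation. The H3.3-HA cells came from other mice, in which the HA tag sits at the endogenous H3f3b, so H3.3-HA was not measured in the WT or cKO cells themselves. All mice had a C57BL/6 background, were male or female and 8 to 10 weeks old, and their bone marrow was cultured for 6 to 8 days in L929-conditioned medium. The labels call the replicates biological without saying whether they came from separate mice or cultures, so a p-value here measures only the spread between these libraries, which may be technical.

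H3K27ac sits at active promoters and enhancers, and H3K36me3 is laid down over the bodies of transcribed genes behind RNA polymerase II. H3.3 is placed into chromatin outside DNA replication, at promoters, enhancers and gene bodies in use. Macrophage identity is built by PU.1 (the product of Spi1) with C/EBP and RUNX factors, refined by IRF8, KLF4 and c-MAF, and extended by the related basic helix-loop-helix proteins MITF and TFEC, which act on lysosomal genes.

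The libraries held 5365319 to 29988098 tags and 35018 to 61764 regions, which covered 46.2 to 170 Mb. Depth was unequal between genotypes. H3K36me3 libraries held 15086387 and 14027132 tags in WT and 23782914 and 23503055 in cKO. H3K27ac libraries held 28366343 and 16444864 tags in WT (replicates 1 and 2) and 29988098 and 25560110 in cKO. cKO replicate 1 of H3K36me3 stood apart: its regions covered 90.7 Mb and held 19.3% of its tags, against 46.5% to 50.2% in the other 3 H3K36me3 libraries. cKO H3K27ac lists were also shorter, at 46.2 and 62.0 Mb against 89.6 and 74.8 Mb in WT, and held 11.8% and 17.8% of the tags against 24.1% and 21.5%. The part of these library differences in the comparisons was not tested, and values scaled to covered length stand beside them. Coverage is given as the percentage of a window that lies in called regions; the lists hold no signal height, so a region missing from a list can differ little in signal. In bulk cells, fewer cells with a mark and less of it per cell cannot be told apart. Of 8 macrophage marker genes, 7 had a region in their body in both libraries for each mark and genotype, and none of 5 T cell markers did. In both libraries of a group, none of 5 neutrophil and 4 erythroid markers had a region, 1 of 5 B cell markers (Ms4a1) had H3K27ac in WT and cKO, and 1 of 4 fibroblast markers (Pdgfrb) had H3K27ac in cKO. In at least 1 library, H3K27ac lay at 2 of 5 neutrophil, 1 of 4 erythroid and 3 of 5 B cell markers in cKO, against 0, 0 and 2 in WT, and the median B cell marker body was covered to 24.1% in 1 cKO library and 0% in WT. The part of these markers in the comparisons was not tested. The deletion itself is not visible in region lists. In the libraries labelled cKO, H3K27ac covered 55.4% and 73.6% of the H3f3b body, against 23.9% and 24.1% in WT. For H3f3a it covered 26.9% and 20.8% against 16.4% and 16.5%. WT and cKO therefore stand for the libraries as labelled. The study reported depletion of H3.3 RNA and protein in cKO BMDMs, with H3f3b deletion complete in some samples and partial in others.

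The start sites that the comparisons turn on are shown first. The sequences are from RefSeq (GRCm38.p6, the same assembly as mm10), where 7 of the 9 genes had an entry, with 11 promoters in all. Spi1 and Maf had no entry, so the promoter motifs below do not cover them. Each runs from 250 bases before to 50 bases after the annotated start, 5′ to 3′ on the gene's strand. Capitals mark matches, on either strand, to any of 8 short motifs: GAGGAAGT (PU.1), TTGCNNAA (C/EBP), TGTGGTT (RUNX), CACGTG (E-box), CATGTG (M-box), TGANTCA (AP-1), GAAANNGAA (IRF) and CCNCACCC (KLF). No motif in the set contains another. A match is a description of letters and not a binding site. The promoters are the 5′ start of Mitf (chr6:97806808-97807107, plus strand), the internal Mitf start where H3K27ac was called in WT alone (chr6:97929567-97929866, plus strand), the distal and the proximal Runx1 start (chr16:92826025-92826324 and chr16:92697280-92697579, minus strand), and the starts of Cebpb (chr2:167688665-167688964, plus strand) and Tfec (chr6:16898392-16898691, minus strand).
Mitf 5′ start: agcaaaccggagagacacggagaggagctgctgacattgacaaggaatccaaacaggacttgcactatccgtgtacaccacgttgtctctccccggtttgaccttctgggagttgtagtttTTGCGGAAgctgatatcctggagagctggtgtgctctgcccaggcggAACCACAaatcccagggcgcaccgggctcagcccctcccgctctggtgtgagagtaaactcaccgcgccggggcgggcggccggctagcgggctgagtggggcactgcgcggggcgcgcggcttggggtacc
Mitf internal start: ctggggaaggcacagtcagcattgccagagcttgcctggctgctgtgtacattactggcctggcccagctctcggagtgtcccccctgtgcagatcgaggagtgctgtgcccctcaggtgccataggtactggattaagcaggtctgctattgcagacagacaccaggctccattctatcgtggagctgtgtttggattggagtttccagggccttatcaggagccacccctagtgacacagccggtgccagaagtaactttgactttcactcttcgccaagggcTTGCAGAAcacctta
Runx1 distal start: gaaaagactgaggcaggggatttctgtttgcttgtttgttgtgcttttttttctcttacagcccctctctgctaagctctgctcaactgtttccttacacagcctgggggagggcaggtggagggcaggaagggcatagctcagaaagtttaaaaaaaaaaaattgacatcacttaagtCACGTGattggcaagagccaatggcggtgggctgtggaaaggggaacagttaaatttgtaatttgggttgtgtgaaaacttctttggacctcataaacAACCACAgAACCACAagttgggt
Runx1 proximal start: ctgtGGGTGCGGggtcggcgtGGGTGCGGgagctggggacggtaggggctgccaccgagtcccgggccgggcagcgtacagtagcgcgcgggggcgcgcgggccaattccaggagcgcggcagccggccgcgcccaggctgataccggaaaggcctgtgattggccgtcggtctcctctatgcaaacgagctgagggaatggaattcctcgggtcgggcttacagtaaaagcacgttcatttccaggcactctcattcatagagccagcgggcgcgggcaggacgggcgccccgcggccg
Cebpb start: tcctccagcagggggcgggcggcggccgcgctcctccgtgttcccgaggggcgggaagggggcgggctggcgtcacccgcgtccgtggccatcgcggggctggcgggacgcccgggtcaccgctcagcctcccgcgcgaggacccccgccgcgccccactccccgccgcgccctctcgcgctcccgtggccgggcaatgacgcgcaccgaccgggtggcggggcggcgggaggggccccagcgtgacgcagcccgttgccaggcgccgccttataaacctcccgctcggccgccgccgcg
Tfec start: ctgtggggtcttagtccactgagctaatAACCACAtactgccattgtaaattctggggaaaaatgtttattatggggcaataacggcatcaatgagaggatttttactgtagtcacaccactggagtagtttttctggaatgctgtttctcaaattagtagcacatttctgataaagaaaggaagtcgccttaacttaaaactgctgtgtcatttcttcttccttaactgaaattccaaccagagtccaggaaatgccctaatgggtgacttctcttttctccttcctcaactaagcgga

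These 6 promoters differed widely in base composition. GC content was 80.7% at Cebpb with 50 CG dinucleotides, 69.0% with 35 at the proximal Runx1 start, and 62.7% with 22 at the 5′ start of Mitf. It was 55.7% at the internal Mitf start, 45% at the distal Runx1 start and 40.3% at Tfec, with 5, 2 and 3 CG dinucleotides. The RUNX motif, held by 5.27% of the 32851 RefSeq promoters, occurred at the 5′ start of Mitf, at Tfec and 2 times at the distal Runx1 start. The C/EBP motif (10.8% of promoters) occurred at both Mitf starts, the E-box (7.15%) at the distal Runx1 start, and the KLF motif (16.6%) 2 times at the proximal Runx1 start. The PU.1 motif (3.20% of promoters) was in none of the 11 member promoters, which leave out Spi1 and Maf. The M-box (14.2%), AP-1 (7.81%) and IRF (8.56%) motifs were in none of these promoters either.

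H3K27ac was lower in cKO at Mitf, Runx1 and Maf, in the sense that both cKO libraries covered less of the window than both WT libraries. That is 3 of 9 members, against 39.1% of the 15422 genes with an H3K27ac region in any of the 4 libraries, so the count lies near the background. None of the 9 was higher without overlap, where 16.3% of genes were. Mitf had the greatest difference. Over the members the median difference of cKO minus WT was -1.93 percentage points, with 7 of 9 below 0, against a median of -0.698 over genes.

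The window of Mitf (chromosome 6, body 97807052 to 98021349, plus strand, 214 kb) was covered by H3K27ac to 26.7% and 24.7% in WT and to 11% and 11.4% in cKO. The groups did not overlap and each pair of replicates lay close together. The means were 25.7% ± 1.45 and 11.2% ± 0.275 (SD, n = 2 each), a difference of -14.5 points. The exact permutation test gave p = 0.333 (two-sided, n = 2 each), the smallest that 2 against 2 libraries allow, so no single comparison in these lists can pass the usual threshold. Of all genes with a region, 2.63% had a lower difference. Scaled to each library's whole covered length, Mitf remained lower in cKO, by a difference of -261 covered bases per Mb of called regions.

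At Maf (chromosome 8, 115682942 to 115707794, minus strand), which encodes c-MAF, H3K27ac covered 6.98% and 6.29% of the window in WT and 0.773% and 2.18% in cKO. Most of the WT coverage was a region centred 3.41 kb inside the gene, of which 3006 and 3390 bp were called in WT and 501 and 777 bp in cKO. It only touched the stretch within 1 kb of a start site, where 30 and 67 of 2001 bp were covered in WT and 0 and 682 bp in cKO. Of the 682 bp, 639 bp belonged to a separate region, called in cKO replicate 2 alone. The difference of the window was -5.15 points (exact permutation p = 0.333, n = 2 each), and it was also lower per covered length, at -35.7 bases per Mb. Runx1 (chromosome 16, 92601466 to 92826149, minus strand, 225 kb), whose protein is needed for blood stem cells to form, had 24.6% and 21.7% in WT and 15.7% and 19.6% in cKO. Its difference of -5.48 points turned to +122 bases per Mb once coverage was taken per covered length, so its direction depended on the scale. Without cKO replicate 1 the Runx1 difference was -3.55 points.

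The other 6 members overlapped between genotypes. Spi1, the gene of PU.1, was the most covered at 37.8% and 33.5% in WT and 34.5% and 33.4% in cKO. Tfec held 16.6% and 16.2% in WT against 12.2% and 16.4%. Irf8, whose protein directs progenitors to the monocyte fate, had 21.8% and 10.4% in WT, so the WT replicates were further apart than the cKO replicates at 12.1% and 16.3%. Cebpb, whose protein activates inflammatory genes, had 21.4% and 17.4% in WT and 20.1% and 28.9% in cKO. Cebpa, required for granulocyte and monocyte progenitors, had 12.8% and 8.16% against 7.90% and 10.5%. Klf4, a zinc finger factor of monocytes, was least covered in WT at 2.07% and 2.79% against 4.2% and 2.68%.

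**Figure D1:**
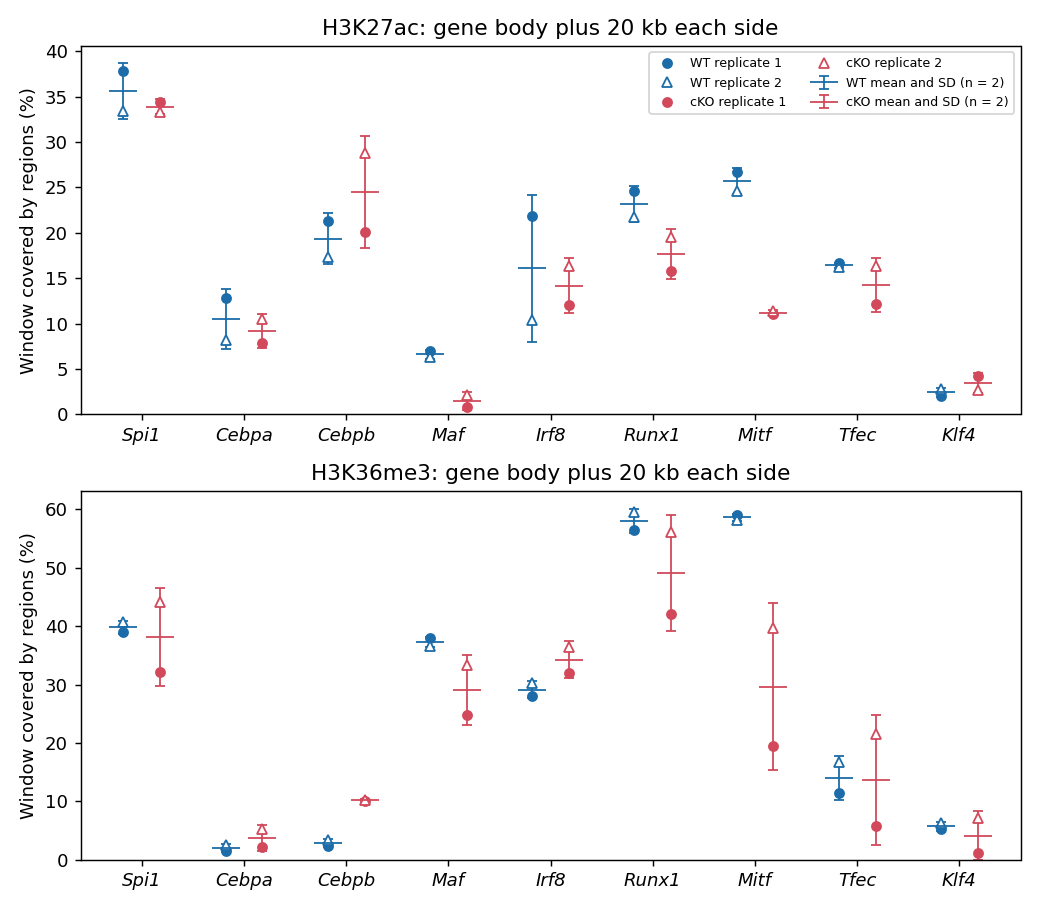
Percentage of each member's window (gene body plus 20 kb each side, y axis) covered by H3K27ac regions (top) and H3K36me3 regions (bottom) in WT (blue) and cKO (red); circles are replicate 1, triangles replicate 2, and bars the mean and SD of 2 libraries. For H3K27ac both cKO libraries lie below both WT libraries at Maf, Runx1 and Mitf, and Mitf has 26.7% and 24.7% in WT and 11% and 11.4% in cKO. Per covered length, Runx1 turns the other way in H3K27ac. For H3K36me3 on that scale the genotypes overlap at Runx1 and Maf.

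The scale mattered for most members. Per covered length, 2 members (Maf and Mitf) were lower and 7 higher in H3K27ac without overlap, beside 22.3% and 41.4% of genes. For H3K36me3, 1 (Mitf) was lower and 4 (Spi1, Cebpa, Cebpb and Irf8) were higher on that scale, beside 28.7% and 28.4% of genes. H3K27ac regions over the 9 windows summed to 211 and 184 kb in WT and to 129 and 152 kb in cKO, a mean of 198 ± 19.1 against 140 ± 15.8 kb (SD, n = 2 each). As a share of the library this was 2356 and 2463 bases per Mb of called regions in WT against 2799 and 2445 in cKO, and these groups overlap.

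Within the gene bodies alone, which are short at the C/EBP genes, both Cebpb and Cebpa were covered more in both cKO libraries than in either WT library. The Cebpb body of 1.504 kb (chromosome 2, 167688915 to 167690418, plus strand) was covered by H3K27ac to 26.9% and 33.3% in WT and to 100% in both cKO libraries. The Cebpa body (chromosome 7, 35119293 to 35121928, plus strand) had 29.1% and 23.8% in WT and 30.3% and 56.1% in cKO. In both cases the call held for the body and not for the window. These 2 of 9 members stand beside 15.99% of genes that were higher over their bodies. Mitf, Runx1 and Maf were lower over their bodies too, 3 of 9 members beside 41.1% of genes.

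H3K36me3 was lower in cKO at the same 3 genes and higher at 2 others. Mitf, Runx1 and Maf were lower without overlap, against 39.8% of the 14680 genes with an H3K36me3 region, and Cebpb and Irf8 were higher, against 5.32% of genes. The median difference over the members was -1.62 points, with 6 of 9 below 0, beside -3.85 points over genes. Without cKO replicate 1, which stood apart, Mitf, Runx1 and Maf were still lower but 6 members were higher, namely Spi1, Cebpa, Cebpb, Irf8, Tfec and Klf4, beside 40.2% of genes lower and 40.3% higher.

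At Mitf, H3K36me3 covered 59.1% and 58.2% of the window in WT and 19.5% and 39.7% in cKO. The cKO replicates were far apart, but both lay well under WT. The means were 58.6% ± 0.645 and 29.6% ± 14.3 (SD, n = 2 each), and the difference of -29.0 points was lower than at all but 0.232% of genes (exact permutation p = 0.333, n = 2 each). Without cKO replicate 1 it was -18.9 points, and per covered length it was -311 bases per Mb.

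Runx1 had 56.5% and 59.5% in WT and 42.1% and 56.1% in cKO, so cKO replicate 2 lay just under the lower WT library. Its difference of -8.87 points shrank to -1.87 without cKO replicate 1 and was -15.9 without cKO replicate 2. With regions of at least 1 kb only, or with lists of equal length, the Runx1 libraries overlapped between genotypes (differences of -10.2 and -8.50 points, exact permutation p = 0.667 for each, n = 2 each). Maf had 38.0% and 36.6% in WT and 24.8% and 33.4% in cKO, a difference of -8.20 points that became -3.94 without cKO replicate 1 and -12.5 without cKO replicate 2. Per covered length the genotypes overlapped at Runx1 and Maf, so neither direction was called. The differences of the means were +150 and +10.0 bases per Mb.

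Cebpb and Irf8 started from very different levels. Cebpb held little H3K36me3 in WT, 2.41% and 3.34% of the window, and 10.1% and 10.3% in cKO, with replicates of each genotype close together. None of its body was covered in WT, against 14.8% and 11.9% in cKO. The mark lay in 1 region that ran from the 3′ end of the gene outward, of which 1002 and 1386 bp were called in WT and 4180 and 4264 bp in cKO. Irf8 (chromosome 8, 120736358 to 120756694, plus strand) had 28.1% and 30.2% in WT and 32.0% and 36.5% in cKO, a difference of 5.16 points that was 2.92 without cKO replicate 2. Both remained higher per covered length, Cebpb by 29.0 and Irf8 by 68.8 bases per Mb. Spi1 (39.0% and 40.6% in WT, 32.2% and 44.1% in cKO), Tfec (11.4% and 16.6%, 5.73% and 21.6%), Klf4 (5.19% and 6.29%, 1.11% and 7.14%) and Cebpa (1.48% and 2.47%, 2.19% and 5.34%) overlapped between genotypes.

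Along Mitf the difference was not even. In 20-kb bins from the 5′ end, H3K27ac covered 91.3% and 76.7% of the first bin in WT and 59.6% and 55.1% in cKO. From 60 to 80 kb it covered 35.2% and 31.1% in WT and nothing in cKO, and the cKO libraries were also both at 0 from 80 to 100 kb, from 120 to 160 kb and from 180 kb to the 3′ end, although WT itself held none in the last bin. The annotated start of transcript Mitf-203, at 122.7 kb, divides the body. Before it H3K27ac covered 48.5% and 45.4% in WT and 20.7% and 21% in cKO, and after it 4.19% and 4.06% in WT and 0.835% and 0% in cKO.

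H3K36me3 along Mitf was low in cKO chiefly in the middle. From 100 to 120 kb it covered 60.4% and 52.0% in WT and 2.51% and 12% in cKO. In the last bin, at the 3′ end, it covered 100% in both WT libraries and 69.8% and 98.9% in cKO. In the first bin cKO replicate 2 lay above WT, at 64.5% against 59.4% and 52.8%.

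Runx1 was divided at its proximal start, 128.8 kb from the distal start. Upstream of it H3K36me3 covered 51.7% and 58.6% in WT and 22.9% and 44.0% in cKO. In the 20-kb bins from 0 to 20 and from 40 to 60 kb, cKO replicate 2 lay within the WT range. Downstream the body is shared by the transcripts of both starts. There H3K36me3 covered 86.5% and 85.6% in WT and 85.5% and 95.9% in cKO, and the groups overlapped. For H3K27ac the groups separated downstream instead, again with cKO lower. Upstream it was 16.9% and 17.1% in WT against 13.8% and 17.5% in cKO, and downstream 45.2% and 36.6% against 23.5% and 29.8%. The places at which both bodies were divided are annotated, but they were chosen after the values along the genes had been seen.

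**Figure D2:**
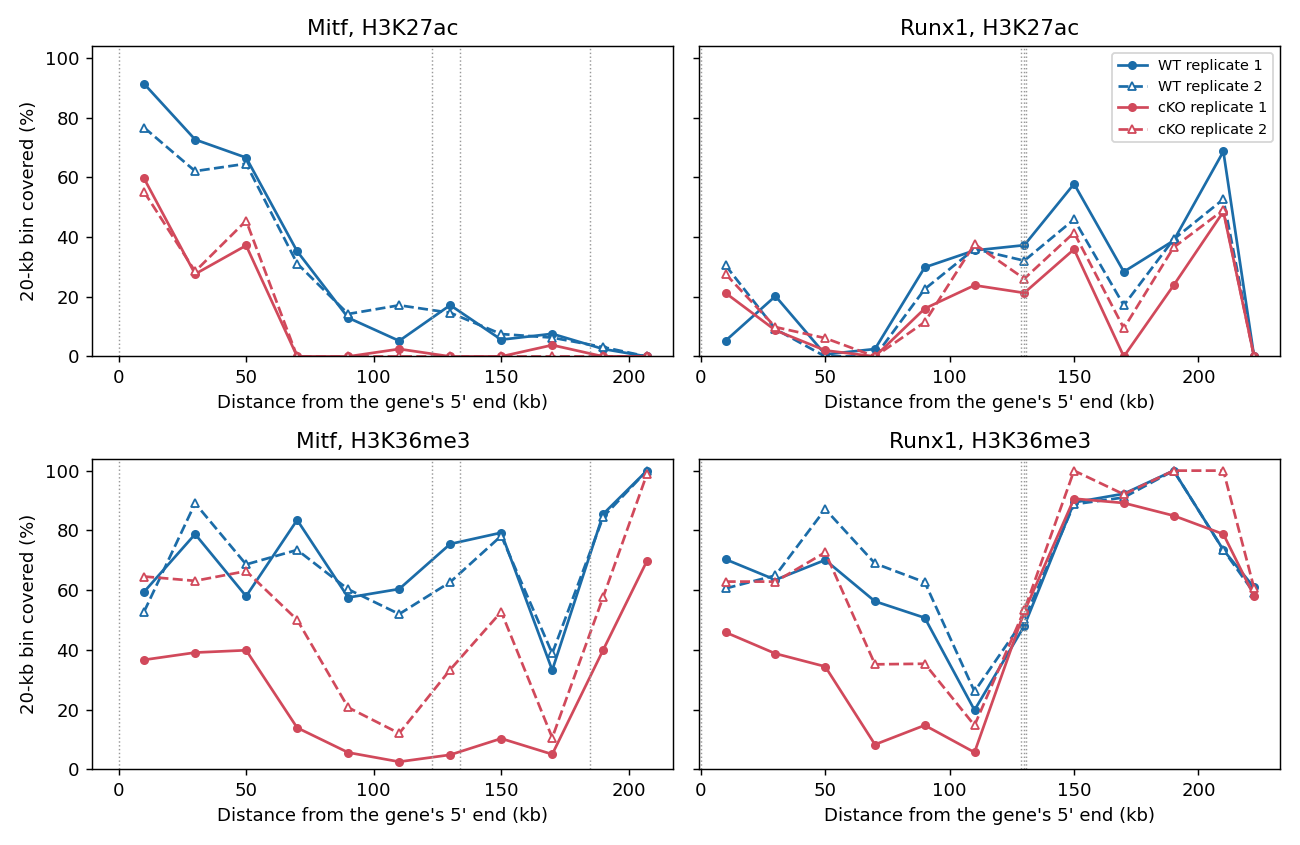
Coverage of 20-kb bins (y axis, percent) along the bodies of Mitf (left) and Runx1 (right) by distance from the 5′ end in kb (x axis), for H3K27ac (top) and H3K36me3 (bottom); blue is WT, red cKO, filled circles replicate 1, open triangles replicate 2, and dotted lines annotated start sites. At Mitf both cKO H3K27ac libraries are at 0 from 60 to 100 kb, where WT has 35.2% and 31.1% in the first of these bins. At Runx1 both cKO H3K36me3 libraries lie below WT from 20 to 40 and from 60 to 120 kb. The genotypes overlap there from 0 to 20 and from 40 to 60 kb.

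Regions were also counted one by one. When the 4 lists of a mark were merged where they touched, the 9 windows held 143 H3K27ac regions. Of these 37 were found in all 4 libraries, 20 (14.0%) in both WT and neither cKO library, here called lost, and 3 (2.10%) in both cKO and neither WT, here called gained. The shares over all 89774 merged regions were 14.2% and 3.34%. Mitf held 9 of the 20 lost regions, among 38 in its window. Runx1 held 4 of 51, Irf8 3 of 11, Tfec 3 of 16 and Maf 1 of 4. Spi1, Cebpa, Cebpb and Klf4 had none. The gained regions were single ones at Spi1, Runx1 and Tfec.

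Promoter regions here lie within 1 kb of a start site of any protein-coding gene, so not always the member's own. Of such H3K27ac regions in the windows 1 of 18 was lost, and of the others 19 of 125, beside 6.20% and 15.5% over the genome. The lost promoter region was that of Mitf-203. H3K36me3 had 88 merged regions, of which 36 were in all libraries, 11 (12.5%) lost and 5 (5.68%) gained, beside 9.50% and 2.45% of 58545 regions. Mitf held 7 of the 11, Maf 2, and Spi1 and Runx1 1 each. Without cKO replicate 1 the lost count was 11 and the gained count was 11, of 89 regions.

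**Figure D3:**
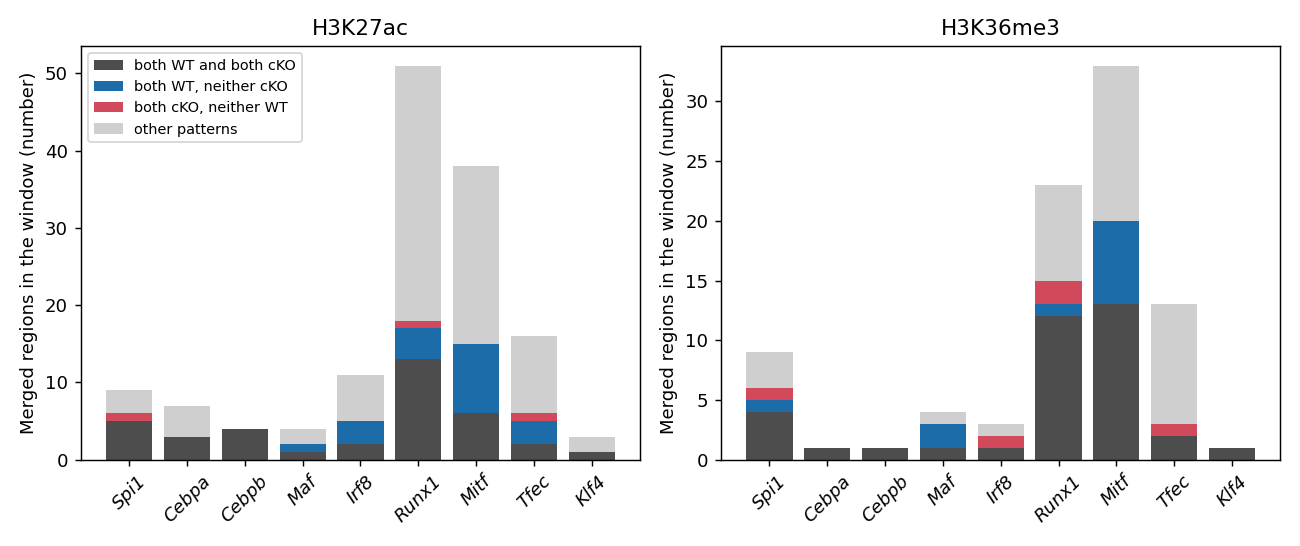
Number of merged regions (y axis) in each member's window for H3K27ac (left) and H3K36me3 (right), by the libraries in which they were found. Mitf has the most regions found in both WT and neither cKO library (blue), 9 of 38 for H3K27ac and 7 of 33 for H3K36me3.

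The centres of 5 H3K27ac regions show what lay under regions that were lost or kept. Each is the central 300 bases on the gene's strand, read from the GRCm38.p6 genome, with capitals as above. At Mitf they are the longest region kept in all libraries that is not at a promoter (chr6:97823978-97824277), the widest lost region (chr6:97882214-97882513), a lost region with several motifs (chr6:97921660-97921959) and a lost region fully covered by H3.3-HA in replicate 2 (chr6:97971473-97971772), all in introns on the plus strand. At Runx1 it is an intron region covered by H3.3-HA across its whole width in both replicates (chr16:92801344-92801643, minus strand). The last 4 were chosen after their values had been seen.
Mitf kept, 17.1 kb from the 5′ end: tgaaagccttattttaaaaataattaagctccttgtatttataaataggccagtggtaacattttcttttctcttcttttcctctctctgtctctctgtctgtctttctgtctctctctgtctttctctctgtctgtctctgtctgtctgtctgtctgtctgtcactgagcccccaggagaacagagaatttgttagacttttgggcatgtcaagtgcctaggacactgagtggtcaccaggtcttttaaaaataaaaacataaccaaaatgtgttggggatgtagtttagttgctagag
Mitf lost, 75.3 kb: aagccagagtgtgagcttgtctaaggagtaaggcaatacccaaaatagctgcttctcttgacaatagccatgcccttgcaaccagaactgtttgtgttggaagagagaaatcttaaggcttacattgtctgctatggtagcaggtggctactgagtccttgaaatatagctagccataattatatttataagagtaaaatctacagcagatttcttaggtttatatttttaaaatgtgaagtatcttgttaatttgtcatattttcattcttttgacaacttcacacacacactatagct
Mitf lost, 114.8 kb: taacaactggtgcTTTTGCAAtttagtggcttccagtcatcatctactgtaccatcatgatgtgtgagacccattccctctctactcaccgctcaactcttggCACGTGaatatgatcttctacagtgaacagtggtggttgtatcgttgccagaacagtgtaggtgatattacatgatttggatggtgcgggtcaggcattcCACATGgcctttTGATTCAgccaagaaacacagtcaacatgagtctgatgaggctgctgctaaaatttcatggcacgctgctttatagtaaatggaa
Mitf lost, 164.6 kb: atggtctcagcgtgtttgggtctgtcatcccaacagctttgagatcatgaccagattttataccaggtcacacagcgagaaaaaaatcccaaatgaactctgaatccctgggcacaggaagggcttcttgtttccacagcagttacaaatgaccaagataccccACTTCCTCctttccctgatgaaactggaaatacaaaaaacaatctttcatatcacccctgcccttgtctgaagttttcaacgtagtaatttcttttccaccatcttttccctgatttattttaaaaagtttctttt
Runx1 kept, 24.7 kb: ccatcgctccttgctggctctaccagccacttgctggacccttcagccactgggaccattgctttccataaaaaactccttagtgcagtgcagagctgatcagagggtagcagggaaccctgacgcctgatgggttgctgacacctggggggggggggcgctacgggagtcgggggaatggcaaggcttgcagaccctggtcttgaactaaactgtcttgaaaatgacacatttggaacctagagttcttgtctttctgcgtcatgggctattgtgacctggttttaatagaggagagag

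The region at 75.3 kb was 5352 bp wide, with 4468 and 3892 bp called in WT and 0 in either cKO library. At 114.8 kb the WT libraries called 501 and 1230 bp, and the centre holds a C/EBP, an E-box, an M-box and an AP-1 match. At 164.6 kb they called 1018 and 762 bp, and the centre holds a PU.1 match. The kept region at 17.1 kb was 20598 bp wide, with 20489 and 17001 bp called in WT and 14119 and 14178 bp in cKO, so a region found in all libraries was also narrower in cKO. The Runx1 region had 2562 and 1834 bp in WT and 1456 and 1403 bp in cKO.

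Over the 67 member regions found in both WT libraries, the M-box was in 15 centres (22.4%), C/EBP in 10 (14.9%), KLF in 8 (11.9%), AP-1 in 6 (8.96%) and IRF in 5 (7.46%). PU.1 and the E-box were in 3 each (4.48%), and RUNX in 0. The shares over the centres of all 35166 such regions were 20.9%, 13.1%, 8.13%, 12.7%, 11.7%, 4.13%, 3.71% and 7.76% in the same order, with PU.1 before the E-box. Of the 20 lost regions 4 held the M-box, 4 C/EBP, 3 AP-1, 2 PU.1, 2 the E-box, 1 KLF and 1 IRF, against 8, 5, 1, 1, 1, 6 and 4 of the 37 kept in all libraries.

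At start sites most members held H3K27ac in both genotypes. A start site within 1 kb of a region in both libraries was found for 6 of 9 members in WT (Spi1, Maf, Runx1, Mitf, Tfec and Klf4; 31.3% of genes), with Maf only by its 30 and 67 bp, and for 7 in cKO (Spi1, Cebpb, Irf8, Runx1, Mitf, Tfec and Klf4; 34.7% of genes). The 5′ start of Mitf was covered over 1990 and 1964 of 2007 bp in WT and 2007 and 1787 bp in cKO, and Tfec over 2001 bp in both WT and 2001 and 1951 bp in cKO. Both genes thus kept H3K27ac at the first promoter. The internal Mitf-203 start had 1191 and 1327 of 2001 bp in WT and 0 in cKO.

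At several start sites the regions were longer in cKO. At Cebpb H3K27ac covered 0 and 501 of 2001 bp in WT and 1104 and 2001 bp in cKO. The distal Runx1 start had 0 and 1213 of 2372 bp in WT and 2256 and 2181 bp in cKO, and the proximal start 569 and 497 of 2001 bp in WT and 1389 and 1747 bp in cKO. At a further start 130.7 kb from the distal one, the order was reversed, with 1366 and 917 bp in WT and 0 in cKO, while H3K36me3 covered 754 and 311 bp there in WT and all 2001 bp in both cKO libraries. Counting the 300-base promoters alone, both WT libraries had no H3K27ac at 7 of 11, namely Cebpa, Cebpb, Klf4, the first Irf8 start, both Runx1 starts and the Mitf start nearest the 3′ end. They covered all 300 bases at the 5′ and the internal Mitf start and at Tfec. GC content was 40% to 80.7% in the first set and 40.3% to 62.7% in the second, so the sets overlapped. Both cKO libraries covered all 300 bases at the distal and the proximal Runx1 start.

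**Figure D4:**
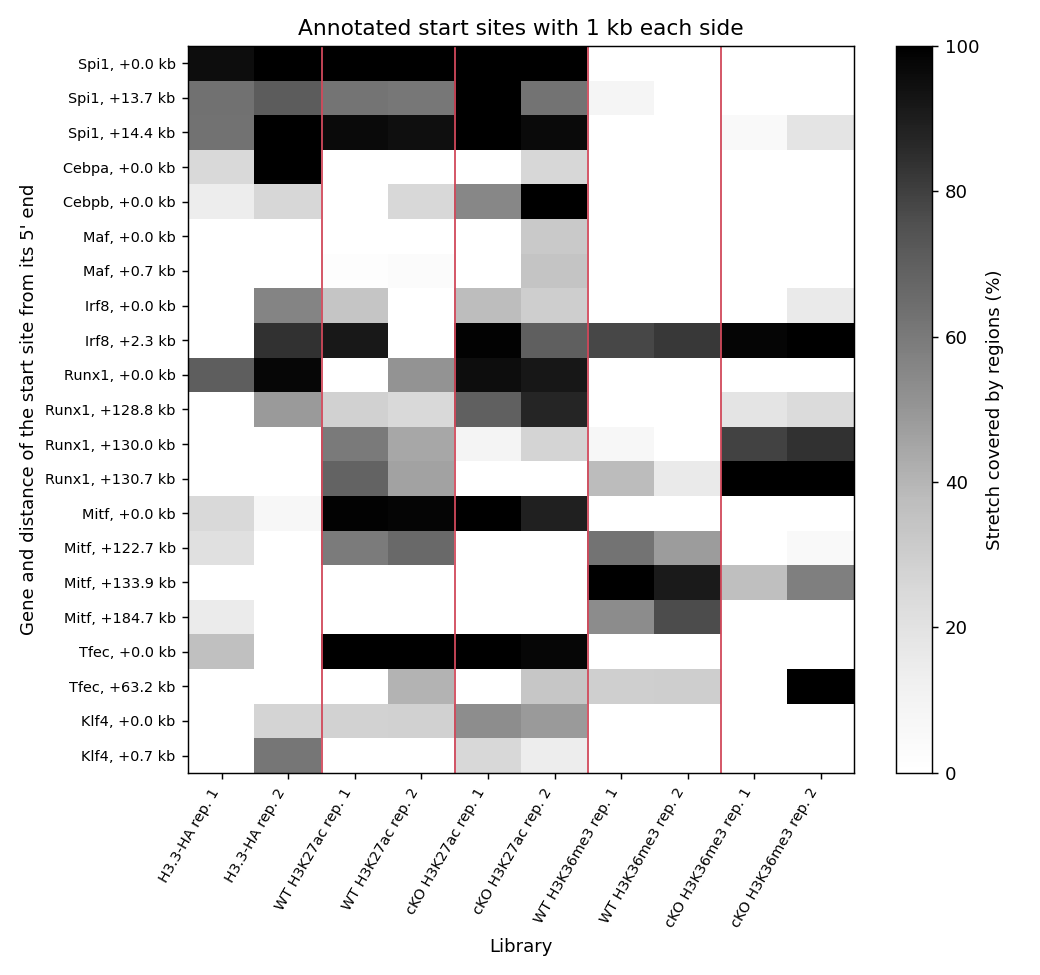
Share of each annotated start site (1 kb each side, rows, with the distance from the gene's 5′ end) covered by regions in each of the 10 libraries (columns), from white (0%) to black (100%). The 5′ starts of Mitf and Tfec are dark in all 4 H3K27ac libraries, Mitf at 122.7 kb is empty in both cKO H3K27ac libraries, and Cebpb and the distal Runx1 start are darker in cKO than in WT.

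H3.3-HA covered most at Spi1 and next most at Irf8 in each replicate. The windows were covered to 27.2% and 56.5% at Spi1, 21.7% and 45.6% at Irf8, 17.8% and 37.6% at Cebpb, 17.7% and 24.4% at Runx1, 18.6% and 21.6% at Mitf, and 11.9% and 25.1% at Cebpa. Tfec (8.29% and 3.47%), Maf (7.46% and 4.22%) and Klf4 (0% and 7.76%) were lowest. Among the first 6, and among the last 3, the ranges of neighbours in this order overlapped. Each of the first 6 lay above Tfec, Maf and Klf4 in both replicates. The ratio of replicate 2 to replicate 1 was 2.08 to 2.11 at Spi1, Cebpa, Cebpb and Irf8, 1.38 at Runx1, 1.17 at Mitf, 0.565 at Maf and 0.419 at Tfec. The GC content of the windows was 50.9%, 49.5%, 52.7% and 50.9% for these genes in the same order, 47.1%, 42.2%, 44.6% and 37.0% for the others, and its part in the replicate difference was not tested.

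Of 151 merged H3.3-HA regions in the 9 windows, 72 were found in both replicates: 28 at Runx1, 19 at Mitf, 8 at Spi1, 6 at Irf8, 5 at Cebpa, 3 at Tfec, 2 at Cebpb, 1 at Maf and 0 at Klf4. By position 45 were in introns of the members and 13 at promoters of any protein-coding gene. H3K27ac of both WT libraries overlapped 40 of the 72 (55.6%), beside 59.8% of the 27649 shared regions of the genome. H3K36me3 of both WT libraries overlapped 46 (63.9%), beside 28.7%, and both marks together 26 (36.1%), beside 18.4%. Neither mark was at 12 (16.7%), beside 29.8%. Most of these regions came from Runx1 and Mitf, where H3K36me3 overlapped 24 of 28 and 14 of 19, so the members' shares rest largely on those genes.

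Of the 72 shared H3.3-HA regions, 40 carried H3K27ac in both WT libraries and 35 in both cKO libraries. The genome share was not computed for cKO, whose H3K27ac lists were shorter. At Mitf 12 of the 19 H3.3-HA regions carried H3K27ac in both WT libraries and 6 in both cKO libraries. At Runx1 the numbers were 15 and 13, at Spi1 5 and 5, at Irf8 3 and 3, at Tfec 3 and 3, and at Cebpa 1 and 4. H3.3-HA in both replicates reached within 1 kb of a start site at 5 of 9 members (Spi1, Cebpa, Cebpb, Runx1 and Mitf), beside 17.0% of genes. At the distal Runx1 start it covered 1666 and 2311 of 2372 bp.

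The H3K27ac regions of WT were divided by whether they coincided with H3.3-HA. Of 42 regions found in both WT libraries that overlapped a shared H3.3-HA region, 6 were lost, beside 22.0% of such regions in the genome. Of 25 without one, 14 were lost, beside 47.4%. For H3K36me3, 3 of 30 with H3.3-HA were lost (6.27% in the genome) and 8 of 26 without (25.0%), and the members' counts were also 3 and 8 without cKO replicate 1. The regions differed in width, with medians of 3264.5 against 1230 bp for H3K27ac and 6896 against 3325 bp for H3K36me3, and the part of width was not tested. At Mitf 3 of the 9 lost H3K27ac regions, at 75.3, 121.5 and 164.6 kb, did overlap shared H3.3-HA.

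**Figure D5:**
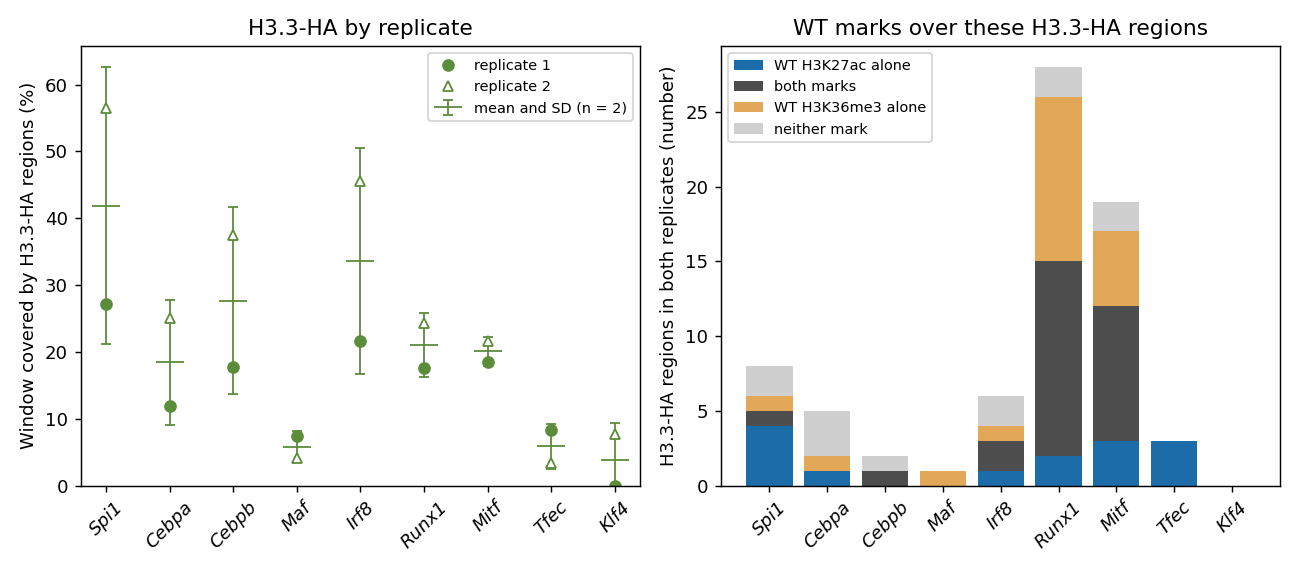
Left: percentage of each member's window (y axis) covered by H3.3-HA regions in replicate 1 (circles) and replicate 2 (triangles), with mean and SD of the 2. Right: number of regions (y axis) that both H3.3-HA libraries held, coloured by the mark that both WT libraries carried there; Runx1 has 28 and Mitf 19, most of them with H3K36me3.

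Other genes of the same kind give a scale for these values. In a list of 46 further myeloid transcription factor genes, all with regions of both marks, H3K27ac was lower in cKO at 16 (34.8%) and higher at 7 (15.2%), and H3K36me3 lower at 18 (39.1%) and higher at 8 (17.4%). Over all genes with a region, the shares lower and higher were 39.1% and 16.3% for H3K27ac, and 39.8% and 5.32% for H3K36me3. Without cKO replicate 1, H3K36me3 was lower at 19 and higher at 26, beside 40.2% and 40.3% of genes. The greatest H3K27ac differences without overlap were at Fli1, an ETS factor (48.2% and 43.8% in WT, 25.9% and 26.9% in cKO), and Zeb2, a zinc finger repressor (58.6% and 54.4%, 36.1% and 38.7%). Junb and Fos, which form AP-1, were higher: Junb had 20.6% and 15.8% in WT and 25.1% and 32.5% in cKO, and Fos 17.5% and 18.2% against 27.3% and 26.7%. For H3K36me3, Pparg, the lipid-sensing receptor, went from 27.9% and 35.2% to 13.5% and 21.9%, and Stat3 from 57.4% and 56.2% to 34.4% and 52.0%. Klf6 went from 0% and 1.30% to 15.1% and 16.1%, and Nfe2l2, the regulator of the oxidative stress response, from 38.2% and 37.7% to 41.4% and 56.8%.

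Transcription factor genes of other blood lineages had low coverage. Of 24 genes, 15 had an H3K27ac region and 15 an H3K36me3 region, and the median H3K27ac coverage over the 24 was 0.221% in WT and 0.975% in cKO. Among those with a region, H3K27ac was lower at 5 and higher at 5 (33.3% each), beside 39.1% and 16.3% of all genes. H3K36me3 was lower at 6 (40%) and higher at 1 (6.67%), beside 39.8% and 5.32%. Without cKO replicate 1 it was lower at 6 and higher at 6, beside 40.2% and 40.3%. Nfe2, an erythroid and megakaryocyte factor, had 5.25% and 3.52% of H3K27ac in WT and 17.6% and 35.8% in cKO, and Zbtb7b 14.5% and 11.8% against 19.3% and 23.8%. Tal1 (7.82% and 5.08%, 4.77% and 2.58%) and Tbx21 (2.76% and 2.55%, 1.16% and 1.33%) were lower. Hoxa9, a progenitor gene, had no H3K36me3 in WT and 8.49% and 27% in cKO, whereas Tcf3 went from 33.5% and 34.8% to 14.5% and 26.7% and Zbtb7b from 30.2% and 31.8% to 10.6% and 29.7%.

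Genes with the most similar coverage over all 10 libraries were found by Euclidean distance in percentage points, without genes whose windows overlap. The nearest to Mitf was Ubfd1 at 16 points (H3K27ac 28.8% and 20.9% in WT against 8.09% and 12.8% in cKO). The libraries of both genotypes entered the distance, so its lower coverage in cKO follows from the choice. For the others these were Dgkz for Spi1 (16.1), Mms19 for Runx1 (11.4), Fos for Cebpb (10.2), Cyth4 for Irf8 (9.48), Fgr for Cebpa (6.94), Rlf for Maf (5.16), Pin1rt1 for Tfec (4.91) and Trp53rka for Klf4 (3.97). Spi1 and Mitf were thus the members with the most distant nearest gene. The distances were not scaled to coverage, so highly covered windows can differ by more points. The windows of Spi1, Cebpb and Irf8 also hold parts of other genes (Psmc3, Slc39a13 and Mybpc3, Tmem189, and Gm20388), so their flanking regions cannot be assigned to the member alone.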

How the data were processed

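The authors trimmed CUT&RUN reads with cutadapt, aligned them to mm10 with Bowtie2 and called regions with HOMER in histone mode, separately for each library against an IgG control. Deposited values are the first and last position (bp) of every region, and the score column is constant. Per the file headers, peaks of 500 bp at least 1000 bp apart had to exceed the control 4-fold at a Poisson p-value of 1e-04, also against the surrounding 10000 bp. WT, cKO and H3.3-HA libraries had different IgG controls, so a difference between genotypes includes any between controls. The 5 IgG samples were not analysed here.

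The 9 genes, the gene lists and the markers were chosen with earlier results of these data known. Coverage of the gene body plus 20 kb each side was computed for all 21853 protein-coding genes (Python 3.11.15, numpy 2.4.6, pysam 0.24.0). A gene was called lower or higher where both cKO libraries lay beyond both WT libraries. For single values the exact permutation test was used, two-sided. Start sites were those of coding transcripts, joined within 500 bp. The scripts were tested on simulated data. Named genes were the members, up to 2 genes per direction, mark and list with the greatest difference among those without overlap, the nearest gene of each member, its promoter regions, and its longest other H3K27ac region of both WT libraries. Alternatives were other windows, regions of at least 1 kb, lists of equal length, other merging and overlap rules, coverage per Mb of called regions, a replicate block and leaving out each library. Intervals per region could not be given, since the lists hold no counts per region.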

Additional observations from a re-analysis of the deposited data

How the results depend on the processing

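The lists hold regions without signal heights, and 2 libraries per group set the smallest p at 0.333, so depth and replication limit every comparison. Mitf was lower in cKO for both marks under every alternative tried. Without 1 library, members with lower H3K27ac numbered 3 to 7 and with higher H3K27ac 1 to 2. Regions lost were then 26 to 46 and gained 5 to 11, of 128 to 142 merged regions. Of all genes 40.9% to 60.7% were then lower and 18.4% to 37.6% higher. For H3K36me3 the ranges were 3 to 6, 2 to 6, 11 to 25 and 5 to 11 in the same order, and the merged regions numbered 86 to 97. Of all genes 40.2% to 85.5% were lower and 6.19% to 40.3% higher in H3K36me3. H3.3-HA regions in the 9 windows numbered 113 to 132.

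Scaling to covered length, chosen after seeing the data for the summed length, reversed the sign of several mean differences. These were Runx1 for H3K27ac (122 bases per Mb), Maf and Runx1 for H3K36me3 (10.0 and 150), and the summed length of both marks (213 and 19.3). Of these, only Runx1 for H3K27ac separated the genotypes. The summed H3K36me3 length was 2360 and 2346 bases per Mb in WT and 2554 and 2190 in cKO, where cKO replicate 2 stayed below WT. On that scale 7 members were higher in H3K27ac (41.4% of genes), and for H3K36me3 1 was lower (28.7%) and 4 higher (28.4%). With regions of at least 1 kb, H3K27ac was lower at 5 members (34.5% of genes) and higher at 1 (18.9%). Of 63 H3K27ac regions 9 were lost, and of 58 H3K36me3 regions 6 were lost and 1 gained. H3.3-HA had 31 shared regions, against 72 in the main setting, and 3 member promoters, against 5. Lists of equal length left 11 of 103 H3K27ac regions lost and 1 member higher (25.6% of genes). In both settings Runx1 was no longer lower in H3K36me3 without overlap. The gene body alone gave 2 members with higher H3K27ac (15.99% of genes), and 5 kb each side 1 (17.3%). Either gave 3 gained H3K36me3 regions, of 77 and 78. With 50 kb each side 5 of 186 H3K27ac regions were gained. Merging within 1 kb left 0 of 95 regions gained for H3K27ac, and 6 lost and 3 gained of 49 for H3K36me3. Requiring a covered share of at least 50% gave 5 of 143 H3K27ac regions gained and 18 of 88 H3K36me3 regions lost. H3K27ac then lay at 40.3% of H3.3-HA regions. Genome shares of the region and promoter counts were not computed under any alternative, and the cause of these changes was not tested.

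WT and cKO share replicate numbers, but the labels do not say that equal numbers pair the samples. Over genes, same-numbered deviations correlated at -0.185 for H3K27ac and 0.161 for H3K36me3. With 2 libraries per group this value can follow which replicate list is longer, so it cannot decide whether replicates were paired. With a replicate block, 4 members were lower and 0 higher for H3K27ac (41.7% and 18.6% of genes), and 3 lower and 3 higher for H3K36me3 (50.5% and 7.53%), and the sign-flip test cannot go below 0.5. Crossed pairing for H3K27ac, chosen after seeing the data, gave 5 lower and 2 higher (47.7% and 22.5% of genes).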
